A study of Mus musculus with 12 samples.

Results

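Retnla, Chil3, Chil4 and Ear2 are listed as secreted effectors of alternatively activated macrophages, and they were taken from the gene names of the 12 count files, standing alone or as one part of a joined name. They are 4 of the 19549 features in the files. Retnla, Chil3 and Chil4 each had a row of their own, and Ear2 was present only in the joined feature Ear12_Ear2_Ear3, whose reads cannot be divided among its 3 genes. The cells were bone marrow-derived macrophages from naive female FVB mice, exposed for 4 h to either IFNG (interferon gamma, 200 units/mL) or IL4 (interleukin 4, 40 ng/mL). From each preparation about 10% of the cells gave a total mRNA library, and the lysate of the rest was spread on a 5 to 50% sucrose gradient, from which mRNA carrying more than 3 ribosomes gave a polysome library. This made 4 groups of 3 SmartSeq2 libraries (IFNG total, IFNG polysome, IL4 total and IL4 polysome), and no unstimulated macrophages were analysed here, so each cytokine difference is IL4 relative to IFNG. Nothing in the labels ties the replicates to separate mice or separate cultures, and p-values here therefore reflect only how much these samples vary, possibly for technical reasons.

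IL4 binds a receptor built from Il4ra with either Il2rg or Il13ra1, JAK kinases bound to the receptor phosphorylate STAT6, and STAT6 dimers enter the nucleus and switch on the genes of alternative activation. Retnla encodes resistin-like molecule alpha (also called Fizz1), a small secreted cysteine-rich protein of type 2 immune responses. Chil3 (Ym1) and Chil4 (Ym2) encode secreted chitinase-like proteins that keep the fold of a chitinase but lack its enzyme activity, and Ear2 encodes a secreted ribonuclease of the eosinophil-associated family. Messages for secreted proteins are translated on ribosomes at the endoplasmic reticulum, and the share of a message that carries several ribosomes is commonly used as a measure of how actively it is translated. The levels compared here are scaled within each library. A change on polysomes is therefore relative to the other messages and does not give that share.

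Retnla lies on the forward strand at chr16:48842609-48844461, Chil3 and Chil4 lie on the reverse strand at chr3:106147554-106167564 and chr3:106201491-106219479, and Ear2 lies on the forward strand at chr14:44102654-44103531 (RefSeq annotation of GRCm38.p6). All 4 symbols matched the RefSeq promoter table. The 250 bases upstream of the annotated start of Retnla (chr16:48842359-48842608, forward strand), Chil3 (chr3:106167565-106167814, reverse strand) and Chil4 (chr3:106219480-106219729, reverse strand) are shown because these 3 genes separated the IL4 from the IFNG libraries. Capitals mark matches to a STAT6 motif and to a TATA box, and each sequence reads 5′ to 3′ toward the gene.
Retnla: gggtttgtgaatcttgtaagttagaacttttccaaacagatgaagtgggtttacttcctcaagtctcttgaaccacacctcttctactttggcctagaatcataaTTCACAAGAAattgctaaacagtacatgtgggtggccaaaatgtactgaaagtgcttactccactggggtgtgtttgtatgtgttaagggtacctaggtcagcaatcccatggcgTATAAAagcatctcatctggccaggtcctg
Chil3: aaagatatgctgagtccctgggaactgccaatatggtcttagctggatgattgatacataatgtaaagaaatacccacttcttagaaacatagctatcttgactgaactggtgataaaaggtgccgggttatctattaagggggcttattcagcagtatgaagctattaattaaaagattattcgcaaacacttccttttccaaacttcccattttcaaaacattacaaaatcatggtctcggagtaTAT
Chil4: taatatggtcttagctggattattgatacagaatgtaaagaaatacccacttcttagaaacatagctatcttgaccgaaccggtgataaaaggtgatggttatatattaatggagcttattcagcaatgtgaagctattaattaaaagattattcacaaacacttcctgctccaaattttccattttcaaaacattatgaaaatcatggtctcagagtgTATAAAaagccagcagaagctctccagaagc

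The motifs were searched on both strands from 250 bases before to 50 bases after the start. The STAT6 motif was TTC and GAA separated by NNNN. Retnla held 1 STAT6 match, TTCACAAGAA, at -145 to -136, and a TATAAA at -30 to -25. Chil3 and Chil4 held no match to the STAT6 motif in this window. The TATAAA of Chil4 lay at -31 to -26, whereas that of Chil3 spanned the annotated start (-3 to 3, with 3 of its bases inside the printed stretch). The printed Chil3 and Chil4 stretches were 91.0% identical over 221 aligned bases, while the other pairs among the 4 genes were 60.0 to 66.0% identical. The Ear2 window held no STAT6 or TATAAA match. Matches to TTNNGNAA, a form of the C/EBP motif, numbered 3 in Retnla, 3 in Chil3, 3 in Chil4 and 1 in Ear2. Of 32851 RefSeq promoter windows of the same length, 6.95% held the STAT6 motif, 13.6% TATAAA and 40.7% the C/EBP motif. These matches describe letters in a window and are not shown to be bound.

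The libraries held 2563955 to 22014162 counts, with the fewest in the polysome groups, and 3 counts corresponded to 0.184 to 1.13 CPM (counts scaled to library sizes adjusted with TMM). Of all features, 10421 passed the filter on low counts and were tested, among them Retnla, Chil3 and Chil4. The 10 macrophage markers all had counts in every group, with a summed level of 7829 to 13905 CPM in the IL4 libraries and 10547 to 24465 CPM in the IFNG libraries. Of these 10, 2 were called lower with IL4 in total mRNA and 4 on polysomes, and none was called higher. Over all tested features 7.07% and 7.54% were called lower. The eosinophil markers Prg3, Epx, Il5ra and Gata1 were at 0 counts in all groups, and the 7 eosinophil markers summed to 0 to 3.69 CPM. Among them Ccr3 had 41 counts in IL4 total mRNA and 0 in IFNG total mRNA. Of the 2 eosinophil markers that were tested, Ccr3 was called higher with IL4 in total mRNA, and none was called on polysomes. Ly6g, Elane and Cxcr2 were at 0 in the IL4 libraries, and the 11 neutrophil markers, Retnlg among them, summed to 4.36 to 15.6 CPM there and to 6.09 to 37.9 CPM with IFNG. Of the 4 neutrophil markers that were tested, 1 was called lower with IL4 in total mRNA and none on polysomes. Mast cell and basophil markers summed to at most 0.518 CPM in any library, B cell markers to at most 0.507 CPM and T and NK cell markers to at most 0.369 CPM. The 5 dendritic cell markers summed to 8.43 to 44.1 CPM with IFNG and 0.551 to 1.42 CPM with IL4. Flt3 was at 0 in all groups and Clec9a at 0 with IL4. Both tested ones, Clec9a and Xcr1, were called lower with IL4 in each fraction. Zbtb46 had higher means with IL4, at 0.623 against 0.400 CPM in total mRNA and 0.659 against 0.445 CPM on polysomes. Siglech had lower means with IL4, at 0.0843 against 0.430 CPM in total mRNA and 0.236 against 0.638 CPM on polysomes. The 5 epithelial markers summed to 0.127 to 3.35 CPM with IFNG and 11.8 to 125 CPM with IL4, where Epcam and Krt18 were at 0 and Cdh1, also an IL4-induced gene of macrophages, was the 1 tested. The 6 stromal and adipocyte markers summed to 0.950 to 41.4 CPM with IFNG and 1.26 to 11.8 CPM with IL4. The part of such cells in the differences of the members between IL4 and IFNG was not tested. Reads assigned to Lars2, a mitochondrial leucyl-tRNA synthetase gene, made up 0.341 to 2.00% of the counts of the total libraries and 1.78 to 29.3% of those of the polysome libraries. Whether these reads came from the message of that gene or from other RNA was not tested.

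Retnla had the largest fitted difference between the polarizations in favour of IL4 of all tested features. In total mRNA it stood at 4167, 6380.5 and 2558 CPM in IL4 replicates 1, 2 and 3, against 0, 0.116 and 0.345 CPM in the IFNG replicates. The IL4 libraries held 202076 Retnla counts in all and the IFNG libraries 5. All 3 IL4 libraries were far above all 3 IFNG libraries. The fitted log2 fold change was 14.77 ± 0.98 (SE, n = 3 per group, adjusted p = 1.2e-09, edgeR's quasi-likelihood test with Benjamini-Hochberg adjustment over all tested features). The ratio of pooled CPM was 31640.5, with a 95% counting interval of 13558 to 97447. None of the 10421 tested features had a larger fitted fold change in favour of IL4. The size rests on the few IFNG counts: it was 14.12 with IFNG total replicate 1 left out and 16.30 with replicate 3 left out. In bulk libraries such as these, fewer cells making a message and less message per cell cannot be told apart.

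On polysomes Retnla stood at 10307, 31237 and 20729 CPM with IL4 and at 0.440, 0 and 0.369 CPM with IFNG. The IFNG polysome libraries held 6 Retnla counts and the IL4 polysome libraries 218767, and the groups did not overlap. The log2 fold change was 16.01 ± 1.01 (SE, n = 3 per group, adjusted p = 1.37e-09, edgeR), again above that of every other tested feature, and 17.07 with IFNG polysome replicate 1 left out. Retnla alone made up 1.36, 3.44 and 2.00% of all counts in IL4 polysome replicates 1, 2 and 3, and 0.382, 0.627 and 0.328% of the IL4 total libraries. The polysome shares were thus each above each of the shares in total mRNA.

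Chil3 was also higher with IL4, with far fewer counts than Retnla. It stood at 27.1, 32.0 and 49.5 CPM in the IL4 total libraries. In the IFNG total libraries it was at 0, 0 and 0.691 CPM, all 8 counts being in replicate 3. Every IL4 library was above every IFNG library, and the log2 fold change was 7.23 ± 0.98 (SE, n = 3 per group, adjusted p = 1.59e-05, edgeR). The pooled ratio was 164, with a 95% counting interval of 83.2 to 381, and 15 tested features had a larger fitted fold change. On polysomes Chil3 stood at 21.7, 18.8 and 3.40 CPM with IL4 and at 0, 0 and 0.738 CPM with IFNG, where its 2 counts were again in replicate 3. The groups did not overlap, although IL4 replicate 3 was well below the other two. The polysome log2 fold change was 6.81 ± 1.16 (SE, n = 3 per group, adjusted p = 0.00027, edgeR), and the pooled ratio of 162 had a wide counting interval of 44.4 to 1349. Leaving out IFNG replicate 1 gave 6.59 in total mRNA and 5.65 on polysomes, and leaving out IFNG replicate 3 left no Chil3 count with IFNG (adjusted p = 6.98e-06 in total mRNA and 0.000149 on polysomes, edgeR).

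Chil4 had no count in any of the 6 IFNG libraries. With IL4 it stood at 2.32, 2.51 and 7.14 CPM in total mRNA (186 counts) and at 3.00, 1.77 and 1.13 CPM on polysomes (30 counts). Against a floor of 3 counts over the IFNG group, it was at least 48.5-fold higher with IL4 in total mRNA (adjusted p = 0.000315, n = 3 per group, edgeR) and at least 14.7-fold higher on polysomes (adjusted p = 0.00543, edgeR). The lower ends of the 95% counting intervals, as given for the other ratios, were 39.1 and 11.2. The floor scales with the IFNG totals and the level rests on few libraries. In total mRNA the bound was 29.1 with IL4 replicate 3 left out, which held 113 of the 186 counts (adjusted p = 0.00233, edgeR), and 27.2 with IFNG replicate 1 left out (adjusted p = 0.00217, edgeR). On polysomes it was 9.17 with IL4 replicate 1 left out, which held 22 of the 30 counts (adjusted p = 0.0249, edgeR), and 5.83 with IFNG replicate 1 left out (adjusted p = 0.0256, edgeR). Chil3 and Chil4 are close copies, and the sources used here do not say how reads matching both were counted, so the split between them is uncertain. With their counts summed into 1 feature, an alternative chosen after seeing the data, the log2 fold change was 7.38 in total mRNA and 6.99 on polysomes.

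The joined feature Ear12_Ear2_Ear3 was near the counting floor in every library and did not pass the filter, so it has no fitted test. Its counts were 5, 2 and 5 in IL4 total replicates 1, 2 and 3, against 0, 3 and 2 in the IFNG total replicates, and these ranges overlapped in CPM. The pooled ratio in total mRNA was 1.88 with a 95% counting interval of 0.616 to 6.81, so a difference was not detectable at this depth. On polysomes the counts were 12, 4 and 2 with IL4, at 1.63, 1.42 and 0.756 CPM, against 1, 2 and 0 with IFNG. The 3 IL4 polysome libraries were above the 3 IFNG polysome libraries, which was so for 16.0% of all tested features. The pooled ratio on polysomes was 8.81 with a counting interval of 2.57 to 46.7.

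**Figure D1:**
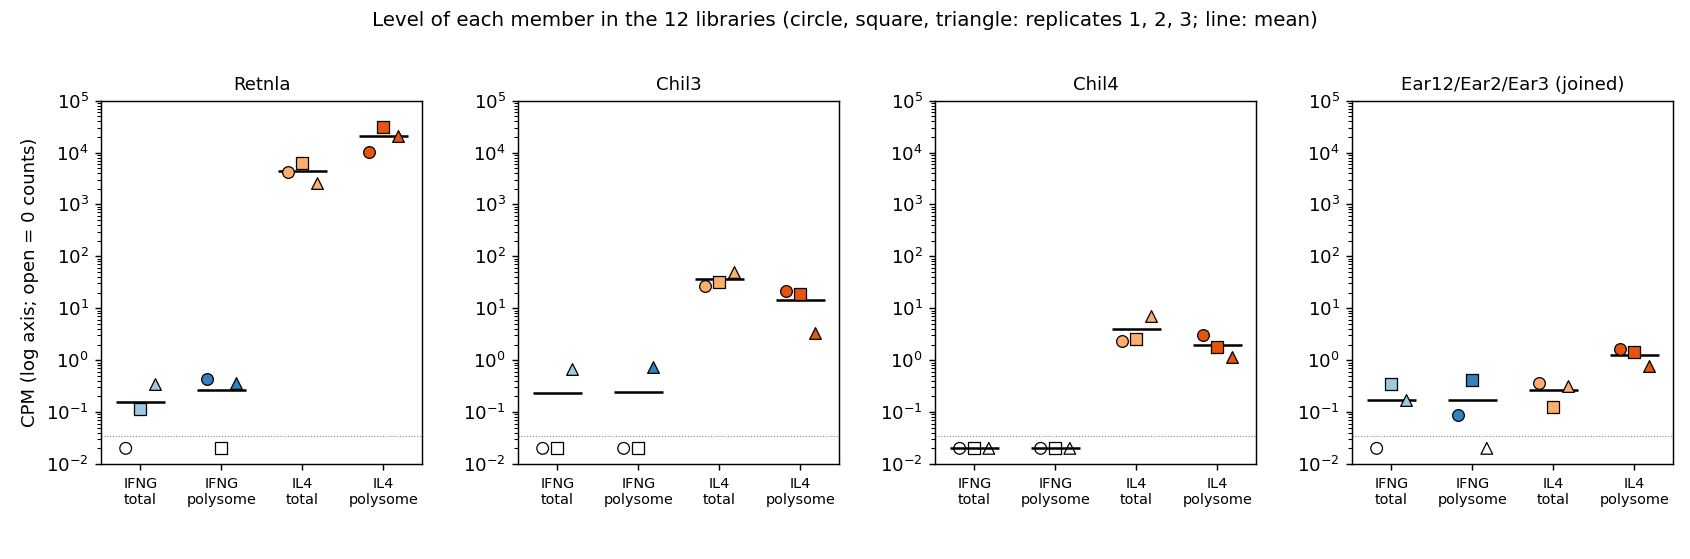
CPM (log axis) of Retnla, Chil3, Chil4 and the joined Ear feature in the 12 libraries; circles, squares and triangles are replicates 1, 2 and 3, open symbols below the dotted line are libraries with 0 counts, and bars are group means. Retnla reaches 2558 to 31237 CPM with IL4 and at most 0.440 CPM with IFNG, Chil3 and Chil4 have counts in every IL4 library and in at most 1 library of each IFNG group, and the Ear feature reaches at most 1.63 CPM.

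Retnla, Chil3 and Chil4, the 3 members that passed the filter, were each called higher with IL4, in total mRNA as on polysomes. Of all tested features, 3.93% were called higher with IL4 in total mRNA and 6.58% on polysomes, where 12.3% and 16.0% had IL4 libraries all above the IFNG libraries. Retnla, Chil3 and Chil4 had nearly all their counts with IL4 and passed the filter through those libraries, so this count is a description of the members and not support for it.

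The second question was whether a message was richer or poorer on polysomes than in total mRNA within the IL4 cells, and Retnla was the 1 member that passed the test. Retnla rose from 4368 ± 1919 CPM in IL4 total mRNA to 20757 ± 10465 CPM on IL4 polysomes (mean ± SD, n = 3). The lowest polysome library, replicate 1 at 10307 CPM, was above the highest total library, replicate 2 at 6380.5 CPM. The fitted change was 4.75-fold, a log2 fold change of 2.25 ± 0.57 (SE, n = 3 per group, adjusted p = 0.00722, edgeR). Among all tested features 98.8% had a lower value and 128 a higher one. On polysomes 13.2% of all tested features were called higher, 15.9% were called lower, and 23.4% had every polysome library above every total library. The call was lost with limma on the authors' deposited log2 values, an alternative chosen after seeing the data (log2 fold change 2.20, adjusted p = 0.0905). The Lars2 share of the IL4 polysome libraries was 5.15 to 18.1%, against 0.903 to 1.47% in the IL4 total libraries, and with library totals computed without Lars2 the Retnla change was 2.04 (adjusted p = 0.0119, edgeR).

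Chil3 did not pass the test in this comparison, and its values lay in the opposite direction. It averaged 36.2 ± 11.8 CPM in IL4 total mRNA and 14.6 ± 9.81 CPM on IL4 polysomes (mean ± SD, n = 3). The highest polysome library, 21.7 CPM, was below the lowest total library, 27.1 CPM, which was so for 25.7% of all tested features. The fitted log2 fold change was -1.29 ± 0.71 (SE, n = 3 per group, adjusted p = 0.168, edgeR), and 2088 tested features had a lower value. Fitting only the 6 IL4 libraries (log2 fold change -1.33, adjusted p = 0.0234, edgeR) or applying no filter on low counts (-1.30, adjusted p = 0.0498, edgeR) brought Chil3 past the threshold. The polysome library with the least Chil3, replicate 3 with 9 counts, also had the highest Lars2 share of its group. Without it the log2 fold change was -0.84 (adjusted p = 0.41, edgeR), and the part of that library's quality in the result was not tested.

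Chil4 averaged 3.99 ± 2.73 CPM in IL4 total mRNA and 1.97 ± 0.947 CPM on IL4 polysomes (mean ± SD, n = 3). The groups overlapped, since polysome replicate 1 at 3.00 CPM exceeded total replicates 1 and 2, and the log2 fold change of -0.96 ± 0.81 (SE, n = 3 per group, adjusted p = 0.382, edgeR) did not pass. The joined Ear feature went from 0.267 ± 0.127 CPM in total mRNA to 1.27 ± 0.457 CPM on polysomes (mean ± SD, n = 3), with no overlap. Over all tested features 23.4% had every polysome library above every total library. The pooled ratio of the joined Ear feature was 5.38, with a 95% counting interval of 2.45 to 12.2 that leaves out the spread between replicates. It came from 18 counts on polysomes, of which replicate 1 held 12 and replicate 3 held 2, and 12 in total mRNA. No test across replicates was fitted for this feature.

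**Figure D2:**
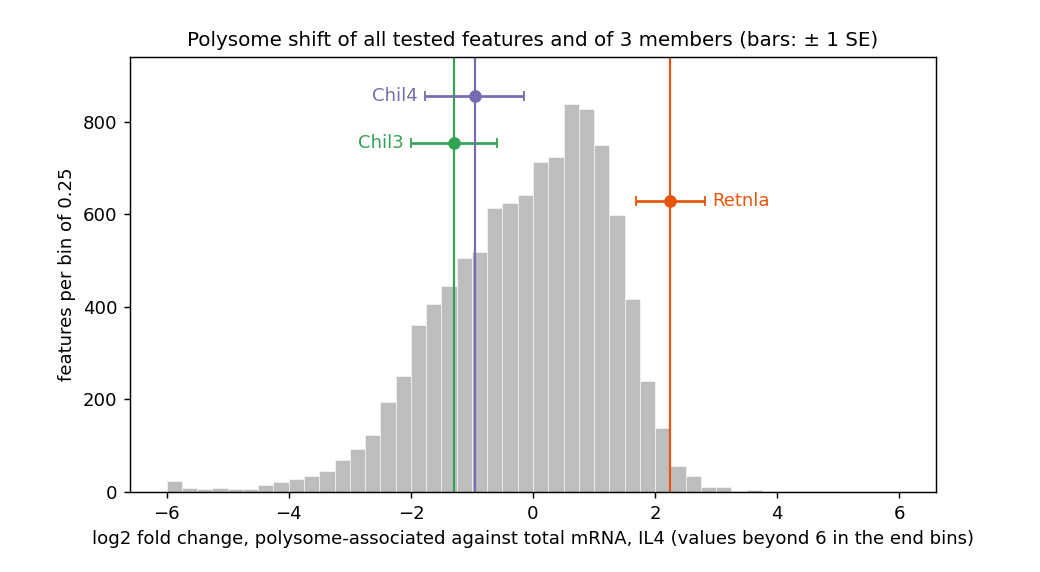
Histogram of the log2 fold change between IL4 polysome and IL4 total libraries for the 10421 tested features in bins of 0.25, with the values of Retnla, Chil3 and Chil4 as vertical lines and their SE as horizontal bars. Retnla at 2.25 lies in the right tail, with 128 features beyond it, while Chil3 at -1.29 and Chil4 at -0.96 lie left of the median of 0.06.

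Within the IFNG cells the same comparison rested on almost no counts. Retnla had 6 counts on IFNG polysomes and 5 in IFNG total mRNA, a pooled ratio of 2.29 with a 95% counting interval of 0.583 to 9.50 (adjusted p = 0.51, edgeR). None of the members was called, where 25.9% of all tested features were. Chil3 had 2 and 8 counts and Chil4 none. A difference between the IL4 and IFNG polysome shifts could therefore hardly be measured for these genes: the interaction term called 0 of the members and 0 of the 10421 features at an adjusted p under 0.05 by edgeR. At an unadjusted p under 0.05 it held 176 features, none of them a member, and DESeq2 called 1 feature, which was no member.

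Counting each member against Retnla in the same library removes the library total from the comparison, but such a ratio falls for any message that did not rise as Retnla did. In IL4 total replicates 1, 2 and 3 there were 65.0, 50.1 and 194 Chil3 counts for every 10000 Retnla counts. In the IL4 polysome replicates there were 21.0, 6.01 and 1.64. All polysome libraries were below all total libraries. The mean log2 ratio was -6.86 ± 1.03 in total mRNA and -10.69 ± 1.80 on polysomes (SD, n = 3), a 14.2-fold lower ratio. For Chil4 the values were 5.57, 3.94 and 27.9 in total mRNA and 2.91, 0.567 and 0.547 on polysomes, again without overlap and 8.12-fold lower on the log2 mean. Over the 10420 other tested features the median ratio to Retnla was 4.48-fold lower on polysomes, and 60.1% of them had every polysome library below every total library. A lower ratio than that of Chil3 was found for 1501 of them, and a lower one than that of Chil4 for 3046, so neither stands apart from the other features by its ratio. For each of these genes a two-sided exact permutation test gave p = 0.1, the smallest value that 3 against 3 libraries allow, and 0.15 after Benjamini-Hochberg adjustment over the 3 ratios. This test cannot reach 0.05 with 3 against 3 libraries. The joined Ear feature kept a similar mean ratio to Retnla, with a log2 difference of 0.10 (exact permutation p = 0.9), on values of 0.870, 0.192 and 1.24 per 10000 in total mRNA and 1.59, 0.453 and 0.365 on polysomes. Leaving out single libraries moved that difference between -0.65 and 0.60, so its sign is not settled.

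**Figure D3:**
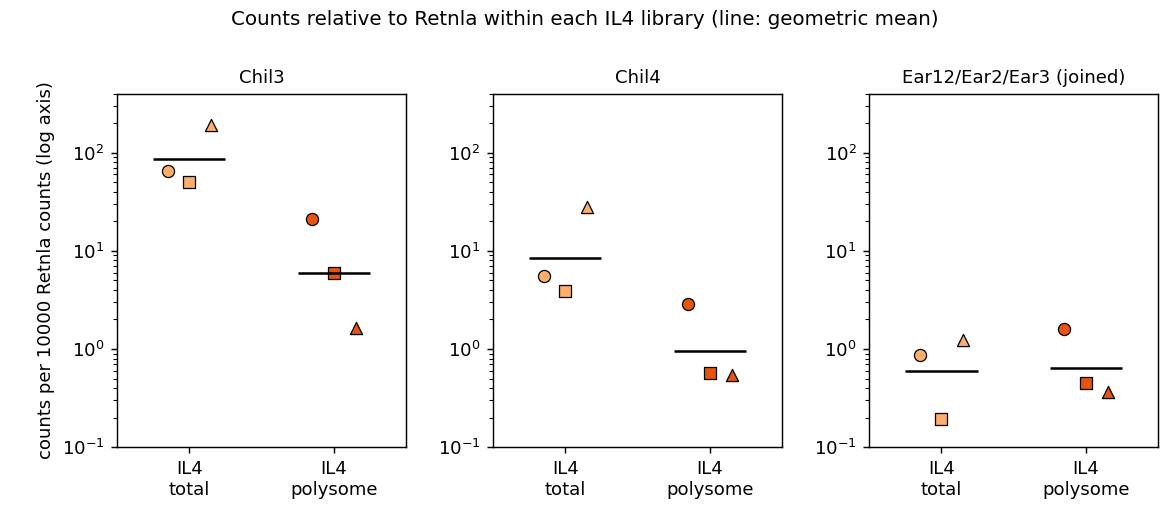
Counts of Chil3, Chil4 and the joined Ear feature per 10000 Retnla counts (log axis) in the IL4 total and IL4 polysome libraries; circles, squares and triangles are replicates 1, 2 and 3, and bars are geometric means. Chil3 runs from 50.1 to 194 in total mRNA and from 1.64 to 21.0 on polysomes, Chil4 from 3.94 to 27.9 and from 0.547 to 2.91, and the Ear feature overlaps between the fractions.

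The other genes of each family gave a mixed picture. Among resistin-like genes Retn, which encodes resistin, had 0 counts in all libraries. Retnlb had counts only in IL4 libraries, with 1, 0 and 0 in total mRNA and 1, 5 and 1 on polysomes. Retnlg, a resistin-like gene of neutrophils and marrow, had 3, 7 and 2 counts in IL4 total replicates 1, 2 and 3, and 7, 25 and 2 on IL4 polysomes, against 1 count in all the IFNG libraries. These few counts came from the libraries that held the many Retnla counts, and whether reads of Retnla were assigned to Retnlb or Retnlg was not tested. In the chitinase family Chil1, another chitinase-like gene, had few counts, most of them with IFNG. It had 44, 0 and 17 counts in the IFNG total replicates and 1, 2 and 0 in the IL4 total replicates, which overlapped. On polysomes it had 7, 5 and 1 counts in the IFNG replicates and 0 in each IL4 replicate. Chil1 did not pass the filter, so it has no fitted test. Chid1_Tspan4, a joined feature that includes a chitinase domain gene, stood at 337 ± 101 CPM with IL4 and 487 ± 299 CPM with IFNG (SD, n = 3, adjusted p = 0.636, edgeR). It fell by 1.96 on the log2 scale on IL4 polysomes (86.5 ± 4.45 CPM, adjusted p = 0.00762, edgeR).

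Among the eosinophil-associated ribonucleases Rnase2a was the one feature with enough counts to test. It stood at 131, 66.8 and 214 CPM in the IL4 total libraries and at 1.01, 0.465 and 3.71 CPM in the IFNG total libraries, without overlap (log2 fold change 6.28, adjusted p = 8.22e-07, edgeR). On polysomes it stood at 167, 168 and 395 CPM with IL4, against 1.14 ± 0.106 CPM with IFNG (log2 fold change 7.73, adjusted p = 2.82e-07, edgeR). Its IL4 polysome values overlapped its IL4 total values, and the difference of 0.83 did not pass (adjusted p = 0.245, edgeR). The other Ear features also had few counts, with Ear1 at 7 counts in IL4 total mRNA and 7 on IL4 polysomes and Ear10 at 4 and 9. Of other secreted ribonucleases, the joined feature Ang_Rnase4, which includes angiogenin, was higher with IL4 (267 ± 90.6 against 79.0 ± 56.1 CPM in total mRNA, SD, n = 3, adjusted p = 0.0145, edgeR). Ang2, another angiogenin gene, had no count with IFNG and 159 in IL4 total mRNA (2.39, 2.02 and 5.88 CPM), at least 41.5-fold higher (adjusted p = 0.000426, edgeR). On polysomes it had 13 counts with IL4 and was at least 6.37-fold higher (adjusted p = 0.0233, edgeR). With IFNG replicate 1 left out these bounds were 23.3 and 2.53, and with IL4 replicate 3 left out that in total mRNA was 26.3. Rnase6 was lower with IL4 (1.73 ± 1.41 against 121 ± 79.7 CPM, SD, n = 3, adjusted p = 9.04e-06, edgeR).

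Of the IL4 receptor and STAT6 signalling genes, all 19 listed features were tested, and 4 were higher and 5 lower with IL4, in total mRNA as on polysomes (median log2 fold change -0.72 and -0.35, beside -0.04 and 0.06 over all features). Over all tested features 7.07% were called lower with IL4 in total mRNA and 7.54% on polysomes. The transcription factor genes Irf4 (10.4 ± 6.43 against 0.513 ± 0.227 CPM, adjusted p = 0.000523, edgeR) and Egr2 (67.8 ± 49.5 against 10.0 ± 3.40 CPM, adjusted p = 0.00244, edgeR) were higher with IL4 in total mRNA (SD, n = 3). The receptor chain genes Il13ra1 (0.501 ± 0.384 against 27.9 ± 20.2 CPM, adjusted p = 4.04e-06, edgeR) and Il2rg (284 ± 81.4 against 1648 ± 125 CPM, adjusted p = 0.000211, edgeR) were lower. The joined feature Nab2_Stat6 stood at 158 CPM with IL4 and 151 CPM with IFNG (adjusted p = 0.959, edgeR).

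The list named other IL4-induced genes of macrophages held 28 genes, of which 25 were tested. With IL4, 15 were higher, 3 lower (Il1rn, Tgm2 and Ch25h) and 7 not called in total mRNA, with the same counts on polysomes and medians of 3.16 and 3.51. Over all tested features 3.93% and 6.58% were called higher and 7.07% and 7.54% lower, with medians of -0.04 and 0.06. The list was named for induction by IL4 and chosen with earlier results of these data known. These counts therefore describe the list and do not test it. Arg1, which encodes arginase, had the largest change among them at 687 ± 460 against 0.772 ± 0.777 CPM (SD, n = 3, log2 fold change 9.72, adjusted p = 1.55e-07, edgeR). Between polysome and total mRNA within IL4, 5 of the 25 rose and 1 fell, beside 13.2% called higher and 15.9% lower over all tested features. The median of the 25 was 0.59, beside 0.06 over all features. Those that rose included Cdh1 (E-cadherin, log2 fold change 2.01, adjusted p = 0.012, edgeR), F13a1 (coagulation factor XIII A chain, 1.94, adjusted p = 0.00725, edgeR) and Mrc1 (the mannose receptor, 1.88, adjusted p = 0.00546, edgeR), and Matk, a kinase gene, fell (-1.74, adjusted p = 0.0479, edgeR). F13a1 had lower means with IL4 than with IFNG, at 10.4 against 26.6 CPM in total mRNA and 40.4 against 54.8 CPM on polysomes. Retnla at 2.25 stood above all 25 values. Arg1 stood at -0.27 and did not pass (adjusted p = 0.769, edgeR).

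**Figure D4:**
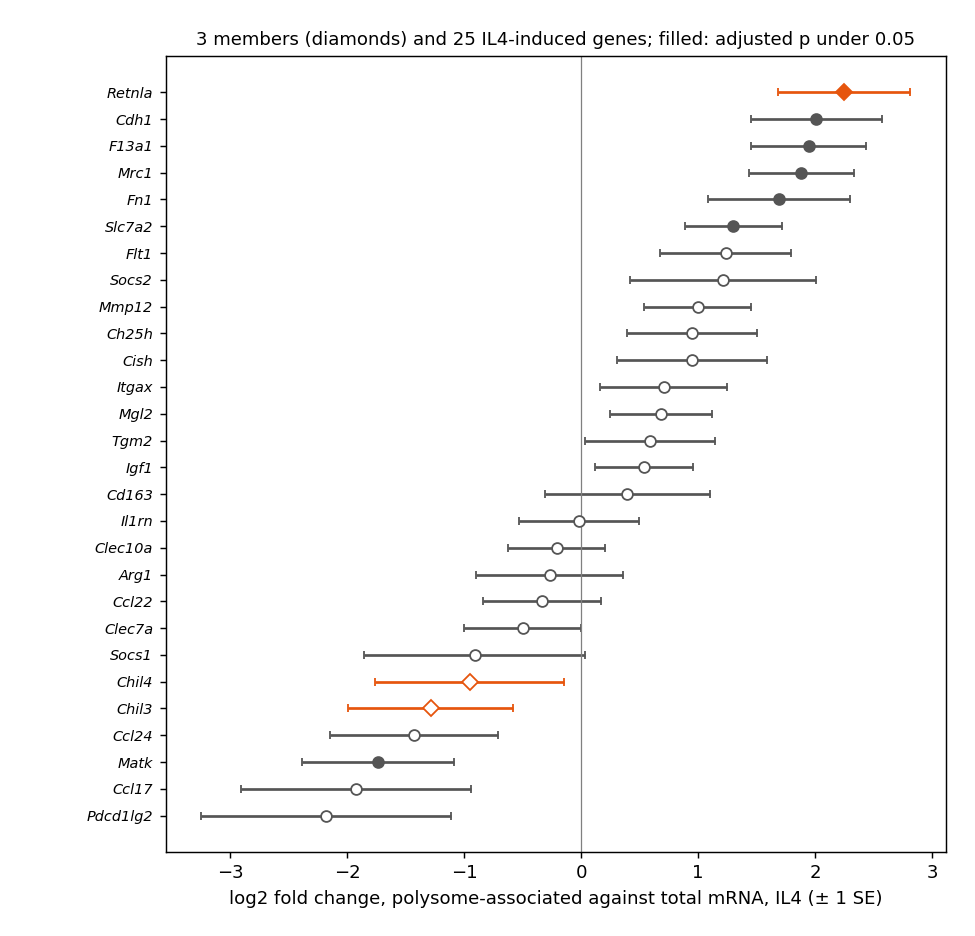
Log2 fold change between IL4 polysome and IL4 total libraries for Retnla, Chil3 and Chil4 (diamonds) and the 25 tested genes of the list named other IL4-induced genes (circles), with bars of 1 SE and filled symbols for an adjusted p under 0.05. Not all of the 25 were called higher with IL4 in these data. Retnla is at the top at 2.25, 5 filled circles from 2.01 down follow it, and Chil3 and Chil4 stand among the lowest values with open symbols.

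A list of 39 features named other secreted proteins of macrophages was set beside the members. Where each of these messages is translated was not tested. In IL4 cells 3 were higher and 11 lower on polysomes than in total mRNA, with a median log2 fold change of -0.27. Over all tested features the shares were 13.2% higher and 15.9% lower, and the median was 0.06. Their values ran from 1.53 for the complement gene C3 (adjusted p = 0.0362, edgeR) to -3.71 for Wfdc17 (adjusted p = 0.000792, edgeR), and Retnla lay above all 39. The chemokine gene Ccl9 (-2.31, adjusted p = 0.00705, edgeR), the complement gene C1qa (-2.27, adjusted p = 0.0127, edgeR) and Gas6, a ligand of TAM receptor kinases (-2.15, adjusted p = 0.00345, edgeR), were lower. The values of Chil3 and Chil4 lay within this range.

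Patterns over the 12 libraries were compared with that of each member by the root mean square difference of centred log2(CPM + 1). The 7749 candidates were tested non-member features with a mean of at least 10 CPM in 1 group. Names of the form Gm plus a number or ending in Rik were left out. The 3 candidates with the smallest difference are given. For Retnla they were Arg1 (2.57), Mgl2 (3.38) and Tmem26 (3.39), each at a larger difference than any listed for Chil3 or Chil4. For Chil3 they were Fam198b (0.746), Atp6v0d2 (0.800) and F7 (0.930), and for Chil4 Chst10 (0.472), Tmem154 (0.481) and Prim1 (0.488). Adding 1 CPM before the log compresses low values such as those of Chil4. With a group mean of at most 3.99 CPM, Chil4 was itself below the level asked of candidates, so features at its own level were not ranked. Its 3 listed features had means of 1.52 to 3.03 CPM with IFNG, where Chil4 had no count.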

How the data were processed

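The files hold whole-number read counts per feature, deposited without normalization by the authors, 1 file per library. A further column holds the authors' deposited log2 values after TMM scaling, per the file headers, for 11006 of 19549 features, with none for Chil4. The mm10 build and the tools HISAT2, HISAT and limma appear, with no version, per the submitters' processing notes. Which counter, strand setting and annotation produced the counts is not given in the sources used here, so overlapping or antisense genes cannot be told apart, and 830 features join several symbols. Groups and replicate numbers came from the labels.

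The analysis used edgeR 4.0.16 under R 4.3.3, with filterByExpr over the 4 groups (10421 features kept), TMM, and 1 robust quasi-likelihood model over all 12 libraries, since the groups then share 1 estimate of the spread. The contrasts were IL4 against IFNG in each fraction, polysome against total mRNA in each polarization, and their interaction. Adjusted p-values are Benjamini-Hochberg values over all tested features, with a threshold of 0.05. CPM uses TMM-scaled totals. Ratios to Retnla used log2 counts with 0.5 added and a two-sided exact permutation test. Counting intervals (95%) and the floor of 3 counts treat reads as independent and leave out the spread between replicates. Since no molecular identifiers are described, reads copied from 1 molecule cannot be told apart, so these intervals may be too narrow. Self-tests on simulated counts were run first. Alternatives used DESeq2 1.42.0, limma 3.58.1, other scalings and filters, replicate blocks and left-out libraries.

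Same-numbered IL4 and IFNG libraries deviated together (correlations of 0.146 to 0.751 in total mRNA and 0.160 to 0.370 on polysomes over 6982 features). In total mRNA 4 of 6 libraries were closest to their own number, and on polysomes 5 of 6. The numbers were taken to pair those groups, from the data and not from the labels. The main model did not use this pairing, which entered only the alternatives with replicate blocks. Within each of the 4 groups no pair of libraries was identical, and pairs across groups were not checked for this. Promoter sequences and positions come from RefSeq (GRCm38.p6), aligned with Biopython 1.88. Named genes were the members, up to 4 called features of each list by size of change with at least 10 CPM in 1 group (or the 2 highest where none was called), family genes with a count, and the 3 nearest patterns per member; Retn, C3, Il1rn, Tgm2, Ch25h, Nab2_Stat6 and Lars2 were added to these after their values were seen. The members and lists were chosen with earlier results of these data known. Levels were not compared between genes per length, since no transcript lengths were used here.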

Additional observations from a re-analysis of the deposited data

How the results depend on the processing

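Over 24 other settings for polysome against total mRNA within IL4, Retnla stayed higher on polysomes, with a log2 fold change of 1.83 to 2.62 and an adjusted p of 0.000292 to 0.0905. The number of members called higher was 0 with limma on the authors' log2 values, chosen after seeing the data, and 1 in the other 23. The number called lower was 1 (Chil3) with no filter on low counts and 1 with only the 6 libraries compared. The ratio of the joined Ear feature to Retnla changed sign when IL4 polysome replicate 1 (-0.49) or IL4 total replicate 2 (-0.65) was left out, and leaving out each library in turn gave -0.65 to 0.60. The corresponding ranges were -4.73 to -2.93 for Chil3 and -3.77 to -2.17 for Chil4. Same-numbered IL4 total and polysome libraries did not all deviate together (correlations of 0.0095 to 0.411, 2 of 6 libraries closest to their own number). With a replicate block by number the IL4 polysome change was 2.18 for Retnla (adjusted p = 0.00308, edgeR) and -1.09 for Chil3 (adjusted p = 0.243), and no block changed a member's call. Against IFNG, Retnla, Chil3 and Chil4 kept their direction and call under each setting in which they were tested; Chil4 was not tested with a mean of at least 10 CPM, on the authors' log2 values or, on polysomes, with only the 6 libraries compared, and it had no row of its own with Chil3 and Chil4 summed.

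The counts over all features moved by more than 1.5 times when single libraries were left out. IL4 polysome against total mRNA gave 515 to 842 higher features without IL4 polysome replicate 3 or IL4 total replicate 1 or 2, and 1004 to 1070 lower. IL4 against IFNG gave 237 and 273 higher features in total mRNA without IFNG total replicate 2 or IL4 total replicate 3. On polysomes it gave 352 to 438 higher without IFNG polysome replicate 2 or 3 or IL4 polysome replicate 2 or 3, and 496 and 503 lower without the latter pair. Polysome against total mRNA within IFNG gave 348, 604 and 298 higher features without IFNG polysome replicate 2, IFNG polysome replicate 3 or IFNG total replicate 1, beside 931, and 967 and 935 lower without the first or the last of these, beside 1769. The interaction called 4 higher and 1 lower feature with no filter. Depth limits the IFNG values of all members, and the joined Ear feature in every library.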
